A study of Mus musculus with 62 samples.

Results

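The gastrocnemius, a calf muscle built mostly of fast fibres, was compared between mice carrying cachectic melanoma cells (CAC) and mock-injected mice (Con), both sampled 6 weeks after the injection per the labels. The comparison holds 10 of the 62 libraries of the study: 5 of CAC and 5 of Con, taken by their labels, with libraries of mice carrying non-cachectic melanoma cells (NCAC) kept apart. All mice were female and 2 months old, per the labels. The injected CAC and NCAC cells are melanoma cells whose lines the labels do not name. The series design calls the mice NCI Ath/nude and the sample labels call them C57BL6/J, and the files do not settle which holds. The extraction protocol also speaks of LLC cells and 3 weeks after injection, which goes against the sample descriptions and the design. Nude mice lack a thymus and most T cells. The labels describe the libraries as biological replicates, and they do not say whether each came from 1 animal.

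Cachexia is the wasting that some tumours cause in muscle and fat. In a wasting muscle, inflammatory cytokines such as interleukin 6 act through JAK kinases and the factor STAT3, and glucocorticoid hormone and FoxO factors turn on genes of protein breakdown. The best known of these are the ubiquitin ligases Trim63 (MuRF1) and Fbxo32 (atrogin-1), which mark muscle proteins for the proteasome, while autophagy carries larger structures to the lysosome. The metallothioneins bind zinc inside the cell and are induced by zinc, by glucocorticoid and by the acute-phase cytokines.

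Values are TPM, which give each transcript's share of a library scaled to the same total in every library, and a log2 change is the difference of mean log2(TPM + 1), CAC minus Con. A gene was called when limma's moderated test gave a Benjamini-Hochberg adjusted p under 0.05 over the 12364 tested genes, and below "rose" and "fell" are used only of called genes. An error after a group mean is the SD over its 5 libraries, and one after a log2 change is the SE. Depth was estimated at 46.04 to 48.35 M reads in CAC libraries and 45.34 to 47.17 M in Con libraries, which did not separate the groups. Fibre genes such as Acta1, Ckm and Myh4 were among the most abundant transcripts of both groups, and the skeletal actin Acta1 averaged 43551 ± 9898 TPM in CAC libraries and 45388 ± 5210 TPM in Con libraries. The summed level of the 20 fibre markers was 167403 to 236776 TPM in CAC and 194502 to 242114 TPM in Con.

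A pair of libraries stood apart in epidermal keratinocyte transcripts. The summed level of 16 epidermal keratinocyte genes, a list chosen after its values were seen, was 144, 5.7, 6.23, 6.48 and 7.72 TPM in CAC replicates 1 to 5, against 1904, 3.81, 4.18, 41.9 and 6.23 TPM in Con replicates 1 to 5. Con replicate 1 was thus far above all other 6-week libraries, CAC replicate 1 came next and Con replicate 4 after it. The keratin Krt5 of the basal epidermis had 11.9, 0, 0, 0 and 0 TPM in CAC replicates 1 to 5, against 179, 0.0946, 0, 4.86 and 0 TPM in Con replicates 1 to 5. With CAC replicate 1 and Con replicate 1 both left out, 5426 genes were called, 4937 higher and 489 lower. CAC replicate 1 also held the most extreme of the 5 CAC values in 65.8% of called rises and 61.9% of called falls. Those genes were called with this library included, and the values were TPM as deposited, not rescaled between libraries. Without CAC replicate 1 alone, 5523 genes were called, 5043 higher and 480 lower.

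At 6 weeks 7069 of the 12364 tested genes were called (57.2%): 6400 were higher in CAC (51.8%) and 669 were lower (5.41%). This split depends on the scale. TPM sum to the same total in every library, and a few transcripts took a smaller part of that total in CAC. The 13 protein genes of the mitochondrial genome held 19.7, 23.3, 25.8, 25 and 30.7% of TPM in CAC replicates 1 to 5, against 32.1, 32, 35.5, 35.7 and 30% in Con replicates 1 to 5. Their mean share was 24.9 ± 4.0% in CAC and 33 ± 2.47% in Con (SD, n = 5 each), with a two-sided exact permutation p of 0.0159. CAC replicate 5 lay above the lowest Con value, and the other CAC libraries lay below all Con libraries. The 20 most abundant genes of each library held 42.5 ± 4.65% in CAC and 50.7 ± 1.11% in Con, with no overlap, and an exact permutation p of 0.00794, the smallest that groups of this size allow.

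The median log2 change of all genes was 0.275 as deposited. Median-ratio rescaling, which sets the typical gene to the same level in every library, moved it by -0.269, to a value of 0.00656. After rescaling 3915 genes were called (31.7%), 1786 higher (14.4%) and 2129 lower (17.2%), so the higher part of the calls was 45.6% instead of 90.5%. Both scales shared 1786 higher and 667 lower calls, and 15 genes were called in opposite directions. Counts of each gene group are therefore given on both scales, and a change under about 0.275 as deposited is no more than the middle gene's. These counts are to be read beside the parts of all genes. Those were 51.8% higher and 5.41% lower as deposited, and 14.4% higher and 17.2% lower after rescaling. All 5 CAC libraries lay above all 5 Con libraries in 3546 genes (28.7%), and below all of them in 279 (2.26%). Of these, 3495 higher (28.3%) and 269 lower (2.18%) were also called.

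**Figure D1:**
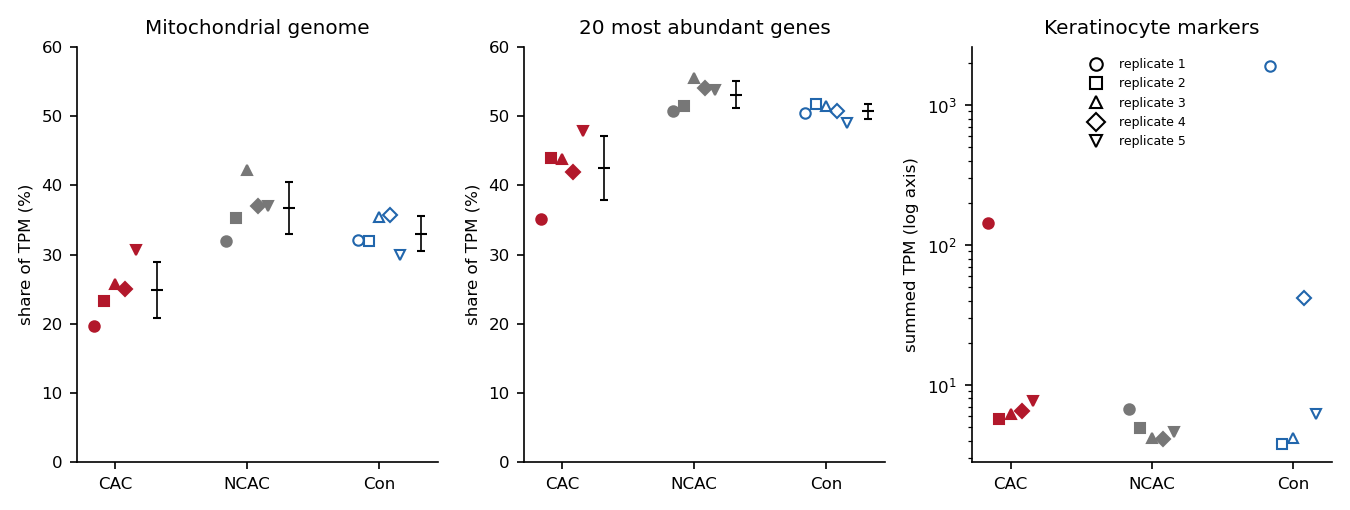
Composition of the 6-week libraries of CAC, NCAC and Con. Left and middle, share of TPM (%) from the genes of the mitochondrial genome and from the 20 most abundant genes, with mean and SD beside the points; right, summed TPM of 16 keratinocyte genes on a log axis. CAC replicate 1 has the lowest shares, 19.7% and 35.2%, and Con replicate 1 the highest keratinocyte sum, 1904 TPM.

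Mt1, Mt2 and the acute-phase protein Hp showed the largest rises among called genes whose groups did not overlap, predicted models, pseudogenes and clone names set aside. Mt1 and Mt2 are metallothioneins. Mt2 (chromosome 8, 94172664 to 94173568, + strand, GENCODE annotation of mm10) had 5281, 2043, 1514, 695 and 821 TPM in CAC replicates 1 to 5, against 29.6, 10.2, 30.7, 23.5 and 14.7 TPM in Con replicates 1 to 5. Mt2 rose by 6.21 ± 0.842 on the log2 scale (adjusted p = 2.12e-07). Its neighbour Mt1 (chromosome 8, 94179082 to 94180327, + strand) had 5809, 1777, 1304, 789.6 and 761 TPM in CAC replicates 1 to 5, against 41.1, 33.9, 50.6, 46.9 and 45.1 TPM in Con replicates 1 to 5. Mt1 rose by 5.11 ± 0.653 on the log2 scale (adjusted p = 5.66e-08). The groups did not overlap in either gene, and CAC replicate 1 was highest in both, and the CAC SD was about as wide as the mean: 2088 ± 2121 TPM in CAC libraries and 43.5 ± 6.34 TPM in Con libraries for Mt1, and 2071 ± 1876 TPM in CAC libraries and 21.7 ± 9.09 TPM in Con libraries for Mt2. The zinc importer Slc39a14 (ZIP14), which brings zinc across the cell membrane, had 54.5, 6.7, 6.79, 9.23 and 7.99 TPM in CAC replicates 1 to 5, against 2.09, 2.2, 2.81, 2.22 and 2.49 TPM in Con replicates 1 to 5. Slc39a14 rose by 1.90 ± 0.395 on the log2 scale (adjusted p = 0.000154). CAC replicate 1 again stood far above the rest, and without it the change was 1.36, adjusted p = 0.00333.

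The promoters of Mt1 and Mt2 are shown because both genes rose together in every CAC library and their zinc switch is written in short repeats. The RefSeq windows run from 250 bases before to 50 after the annotated start on GRCm38.p6, plus strand, chr8:94178839-94179138 for Mt1 and chr8:94172368-94172667 for Mt2. Capitals mark the core of the metal response element, TGCACNC or TGCGCNC on either strand.
Mt1: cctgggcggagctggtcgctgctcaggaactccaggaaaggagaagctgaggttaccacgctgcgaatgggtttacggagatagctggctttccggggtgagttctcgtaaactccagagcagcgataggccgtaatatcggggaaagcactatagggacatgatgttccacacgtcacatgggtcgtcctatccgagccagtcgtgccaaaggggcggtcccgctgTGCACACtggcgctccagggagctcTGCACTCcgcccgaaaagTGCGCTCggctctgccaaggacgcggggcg
Mt2: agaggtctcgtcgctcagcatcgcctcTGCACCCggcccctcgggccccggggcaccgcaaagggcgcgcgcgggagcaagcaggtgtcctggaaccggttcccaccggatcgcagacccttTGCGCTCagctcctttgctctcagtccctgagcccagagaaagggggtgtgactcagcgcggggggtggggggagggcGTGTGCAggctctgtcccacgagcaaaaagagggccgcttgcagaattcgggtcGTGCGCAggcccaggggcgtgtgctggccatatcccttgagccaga
Mt1 held 3 matches and Mt2 held 4. The Mt1 matches at bases 3 to 9 and 21 to 27, and the Mt2 match at bases 5 to 11, lie after the annotated start. Of all 32851 windows of this length, 25.7% held at least 1 match, 1.97% at least 3 and 0.517% at least 4. The window of the zinc exporter Slc30a1, a gene that was not called, held 2 matches, and 7.11% of all windows held at least 2. The Mt1 window also held 1 unmarked match of ACANNNTGT, the core of a glucocorticoid response element, and the Mt2 window held 0. A match describes the letters only, and binding was not measured.

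The other zinc genes moved little beside these. Among the 16 tested metallothioneins and zinc transporters, 12 rose and 0 fell as deposited, and 3 rose and 1 fell after rescaling, with a median log2 change of 0.365 as deposited. Mt3, the brain-type metallothionein, had 4.64, 13.4, 2.92, 7.1 and 8.13 TPM in CAC replicates 1 to 5, against 2.61, 3.56, 1.98, 2.53 and 4.26 TPM in Con replicates 1 to 5, so its groups overlapped. Mt3 rose by 0.94 ± 0.391 on the log2 scale (adjusted p = 0.0371; after rescaling adjusted p = 0.164). That call was also lost without any one of 6 of the 10 libraries, with adjusted p up to 0.134. The zinc exporter Slc30a1, itself a target of the zinc sensor MTF1, averaged 6.8 ± 2.04 TPM in CAC libraries and 5.12 ± 1.19 TPM in Con libraries, and was not called (log2 change 0.33, adjusted p = 0.0824).

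The STAT3 arm of the acute-phase response was high in all CAC libraries. Stat3 itself had 68, 53.2, 50.1, 42.6 and 40.6 TPM in CAC replicates 1 to 5, against 12.8, 11.4, 14.9, 11.6 and 13.4 TPM in Con replicates 1 to 5. Stat3 rose by 1.89 ± 0.129 on the log2 scale (adjusted p = 2.38e-16). Socs3, the feedback inhibitor that STAT3 induces, had 106, 59.6, 61.9, 69.8 and 61.4 TPM in CAC replicates 1 to 5, against 2.93, 2.74, 4.11, 1.8 and 3.63 TPM in Con replicates 1 to 5. Socs3 rose by 4.16 ± 0.417 on the log2 scale (adjusted p = 1.25e-10; chromosome 11, 117966079 to 117970047, - strand). Neither gene overlapped between the groups, and for Socs3 CAC replicates 2 to 5 lay within a narrow band. Osmr, the receptor chain for oncostatin M, had 8.78, 6.97, 6.4, 9.52 and 6.49 TPM in CAC replicates 1 to 5, against 1.37, 1.19, 1.7, 1.29 and 1.36 TPM in Con replicates 1 to 5. Osmr rose by 1.84 ± 0.195 on the log2 scale (adjusted p = 6.84e-10). Cebpd, a C/EBP factor of the acute phase, averaged 192 ± 88.9 TPM in CAC libraries and 18.2 ± 3.51 TPM in Con libraries, a log2 change of 3.23, adjusted p = 1.98e-05. Of the 33 tested genes of this list, 21 rose and 0 fell as deposited, and 17 rose and 0 fell after rescaling, with a median log2 change of 1.07 as deposited and 0.792 after rescaling. In CAC replicates 1 to 5 the list's median over the Con mean was 1.46, 0.94, 0.68, 0.76 and 0.83.

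The Socs3 promoter is shown for its STAT motif. The RefSeq window on GRCm38.p6, minus strand, is chr11:117969317-117969616, and capitals mark TTCNNNGAA, which reads alike on both strands.
Socs3: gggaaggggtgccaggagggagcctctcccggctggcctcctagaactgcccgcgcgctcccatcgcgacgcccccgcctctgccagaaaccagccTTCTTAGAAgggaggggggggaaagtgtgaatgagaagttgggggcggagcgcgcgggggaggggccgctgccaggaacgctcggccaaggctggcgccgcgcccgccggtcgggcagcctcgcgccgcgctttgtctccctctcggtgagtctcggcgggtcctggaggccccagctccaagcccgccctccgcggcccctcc
The window held 1 match, and 8.3% of all windows held at least 1. Gene annotations differ in where Socs3 starts, and this is the RefSeq start.

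Several secreted acute-phase proteins rose by different amounts. Haptoglobin, Hp, which binds free haemoglobin, had 515, 673, 340.1, 253 and 264 TPM in CAC replicates 1 to 5, against 32.7, 5.59, 5.79, 5.14 and 15.3 TPM in Con replicates 1 to 5. Hp rose by 5.13 ± 0.724 on the log2 scale (adjusted p = 5.11e-07). Con replicate 1, the library with keratinocyte transcripts, was the highest Con library in this gene. Serpina3n, a protease inhibitor, had 435, 195, 128, 124 and 114 TPM in CAC replicates 1 to 5, against 7.65, 3.71, 5.27, 4.47 and 7.71 TPM in Con replicates 1 to 5. Serpina3n rose by 4.73 ± 0.564 on the log2 scale (adjusted p = 1.31e-08); reads may be shared with close copies such as Serpina3m. Lcn2, lipocalin 2, which binds bacterial iron carriers, had 257, 48.4, 16.3, 13.9 and 8.06 TPM in CAC replicates 1 to 5, against 0.951, 0.375, 0.31, 0.50 and 0.739 TPM in Con replicates 1 to 5. Lcn2 rose by 4.33 ± 0.671 on the log2 scale (adjusted p = 2.85e-06). The groups were clear of each other, yet CAC replicate 1 held more Lcn2 than the other 4 CAC libraries together, and without it the change was 3.56. Serum amyloid Saa1 had 64, 11.6, 9.25, 6.3 and 3.73 TPM in CAC replicates 1 to 5, against 0, 0.171, 0.0838, 0.581 and 0.588 TPM in Con replicates 1 to 5 (log2 change 3.30, adjusted p = 9.29e-07; 5.23 with a pseudocount of 0.1 in place of 1), and its near copy Saa2 may share reads. Saa3, the amyloid made outside the liver, had 51.1, 4.44, 0.952, 1.61 and 0.388 TPM in CAC replicates 1 to 5, against 1.08, 0.0975, 0.191, 0.855 and 0.192 TPM in Con replicates 1 to 5. Its call (log2 change 1.68, adjusted p = 0.0401) rested on CAC replicate 1: without it the change was 0.80 with adjusted p = 0.322, and after rescaling p was 0.0925.

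Complement genes rose as a broad group. C4b, the fourth component, had 88.4, 94.6, 63.4, 48.2 and 60.5 TPM in CAC replicates 1 to 5, against 9.76, 4.3, 5.06, 2.74 and 9.92 TPM in Con replicates 1 to 5. C4b rose by 3.37 ± 0.423 on the log2 scale (adjusted p = 3.79e-08); its copy C4a may share reads. C3, the component on which all complement routes meet, had 247, 239, 145, 116 and 185 TPM in CAC replicates 1 to 5, against 26.9, 33.4, 30.9, 13.3 and 32.1 TPM in Con replicates 1 to 5. C3 rose by 2.73 ± 0.364 on the log2 scale (adjusted p = 1.34e-07). Cfb of the alternative route averaged 18 ± 4.08 TPM in CAC libraries and 3.78 ± 1.53 TPM in Con libraries. The chains C1qa, C1qb and C1qc, made by macrophages, rose by 1.68, 1.82 and 1.74 on the log2 scale. Of 19 complement genes, 15 rose and 0 fell as deposited, and 13 rose and 1 fell after rescaling; the median log2 change was 1.43 as deposited and 1.19 after rescaling. The 1 fall after rescaling was Cd55, a brake on complement, at 26.5 ± 2.68 TPM in CAC libraries and 30 ± 4.65 TPM in Con libraries (log2 change after rescaling -0.48, adjusted p = 0.0073; as deposited -0.16, adjusted p = 0.314).

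Several chemokines rose. The monocyte attractant Ccl8 had 54.7, 103, 49.6, 27.8 and 47.6 TPM in CAC replicates 1 to 5, against 9.87, 1.62, 1.29, 2.37 and 2.79 TPM in Con replicates 1 to 5. Ccl8 rose by 3.78 ± 0.78 on the log2 scale (adjusted p = 0.000141). The B cell attractant Cxcl13 had 58.3, 24.5, 8.74, 9.67 and 11.1 TPM in CAC replicates 1 to 5, against 0.768, 0.63, 1.24, 0.351 and 0.621 TPM in Con replicates 1 to 5. Cxcl13 rose by 3.41 ± 0.562 on the log2 scale (adjusted p = 7.48e-06). Con replicate 1 was again the highest Con library in Ccl8, and CAC replicate 1 the highest CAC library in Cxcl13. Ccl6, another attractant of myeloid cells, averaged 38.3 ± 16.2 TPM in CAC libraries and 6.0 ± 2.76 TPM in Con libraries, and Cxcl14 averaged 225 ± 71.8 TPM in CAC libraries and 46.8 ± 4.18 TPM in Con libraries. Cxcl12, which fibroblasts make steadily, averaged 30.8 ± 5.14 TPM in CAC libraries and 28.1 ± 1.41 TPM in Con libraries and was not called (adjusted p = 0.583). Of 14 tested chemokines, 8 rose and 0 fell as deposited, and 6 rose and 0 fell after rescaling. Among chemokines the higher part was 57.1% as deposited, near the 51.8% of all genes, and 42.9% after rescaling, against 14.4%. Interferon genes formed a smaller group of rises, since of 30 tested 8 rose and 0 fell as deposited, and 5 rose and 0 fell after rescaling. The rises named here were the membrane proteins Ifitm1, Ifitm2 and Ifitm3 (log2 changes 1.71, 1.51 and 1.25) and the double-stranded RNA sensor Oas2 (0.83, or 1.59 with a pseudocount of 0.1); B2m, the light chain of class I molecules, averaged 251 ± 30.3 TPM in CAC libraries and 199.7 ± 52.1 TPM in Con libraries and was not called (adjusted p = 0.179). The share of interferon genes that rose as deposited, 26.7%, was under the 51.8% of all genes.

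**Figure D2:**
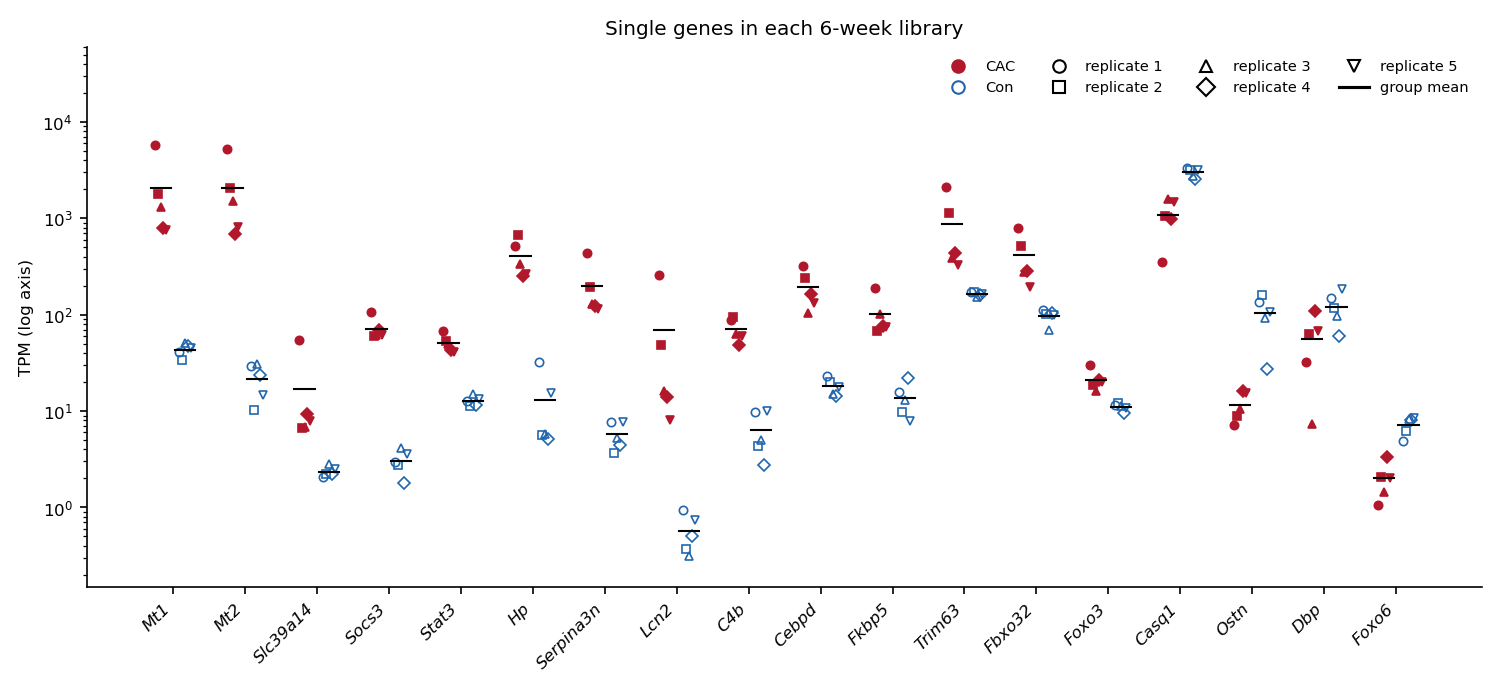
TPM of 18 genes in each CAC and Con library at 6 weeks, on a log axis; symbols mark the replicate and bars the group mean (n = 5 each). CAC libraries lie above all Con libraries from Mt1 to Foxo3 and below them in Casq1, Ostn and Foxo6; in Dbp the groups overlap.

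Targets of glucocorticoid hormone rose with wide spread among the CAC libraries. Fkbp5, a chaperone of the glucocorticoid receptor that the hormone induces, had 191, 67.5, 102, 76.9 and 73.9 TPM in CAC replicates 1 to 5, against 15.9, 9.71, 13.1, 21.8 and 7.97 TPM in Con replicates 1 to 5. Fkbp5 rose by 2.78 ± 0.668 on the log2 scale (adjusted p = 0.000686). Ddit4 (REDD1), an inhibitor of the growth kinase mTORC1, had 452, 267, 64.1, 135 and 123 TPM in CAC replicates 1 to 5, against 27.2, 21.9, 11.3, 32.1 and 13.2 TPM in Con replicates 1 to 5. Ddit4 rose by 3.03 ± 0.746 on the log2 scale (adjusted p = 0.000868). CAC replicate 1 was highest in both and the groups did not overlap. Glul, glutamine synthetase, had 1104, 639.8, 483, 612 and 689 TPM in CAC replicates 1 to 5, against 178, 248, 245, 239 and 137 TPM in Con replicates 1 to 5 (1.73, adjusted p = 0.000698). Pdk4, the kinase that shuts pyruvate out of the TCA cycle, averaged 657 ± 253 TPM in CAC libraries and 308 ± 129 TPM in Con libraries and was not called (log2 change 1.09, adjusted p = 0.063; adjusted p = 0.0232 in a fit of the CAC and Con 6-week libraries alone). Of the 23 tested genes of the glucocorticoid list, 18 rose and 0 fell as deposited, and 13 rose and 1 fell after rescaling; its median was 1.18 as deposited and 0.864 after rescaling. Mt1, Mt2 and Cebpd belong to this list too.

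FoxO genes did not move as 1 family. Foxo3 had 29.8, 18.8, 16, 21 and 19.9 TPM in CAC replicates 1 to 5, against 11.5, 12.1, 11.4, 9.56 and 10.9 TPM in Con replicates 1 to 5. Foxo3 rose by 0.85 ± 0.215 on the log2 scale (adjusted p = 0.00115), without overlap. Foxo1 had 43.2, 11.4, 10.3, 10.5 and 16.8 TPM in CAC replicates 1 to 5, against 4.44, 6.86, 12.5, 4.98 and 5.42 TPM in Con replicates 1 to 5, with overlap. Foxo1 rose by 1.17 ± 0.40 on the log2 scale (adjusted p = 0.012), and leaving out CAC replicate 1 removed its call (adjusted p = 0.0904), as did rescaling (adjusted p = 0.0764). Foxo6 went the other way with 1.05, 2.08, 1.46, 3.38 and 2.03 TPM in CAC replicates 1 to 5, against 4.85, 6.26, 8.26, 8.0 and 8.46 TPM in Con replicates 1 to 5. Foxo6 fell by 1.47 ± 0.267 on the log2 scale (adjusted p = 3.04e-05; after rescaling -1.67), again without overlap. Among genes that FoxO factors are known to turn on, Eif4ebp1, the 4E-BP1 brake on cap-dependent translation, had 1093, 570.4, 258, 368 and 258 TPM in CAC replicates 1 to 5, against 98.9, 87.8, 86.5, 74.2 and 79.5 TPM in Con replicates 1 to 5. Eif4ebp1 rose by 2.34 ± 0.368 on the log2 scale (adjusted p = 3.7e-06). Of 22 FoxO factors and targets, 15 rose and 1 fell as deposited, and 10 rose and 2 fell after rescaling, with list medians of 1.97, 0.91, 0.55, 0.88 and 0.71 over the Con mean in CAC replicates 1 to 5. Txnip and Ppargc1a of this list were not called (log2 changes 0.54, adjusted p = 0.18, and 0.43, adjusted p = 0.208).

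The muscle ubiquitin ligases rose strongly in some CAC libraries and mildly in others. Trim63 (chromosome 4, 134315120 to 134329629, + strand) had 2134, 1126, 388, 434 and 330 TPM in CAC replicates 1 to 5, against 172, 173, 152, 162 and 163 TPM in Con replicates 1 to 5. Trim63 rose by 2.02 ± 0.504 on the log2 scale (adjusted p = 0.000981). Fbxo32 had 798, 512, 277, 287 and 192 TPM in CAC replicates 1 to 5, against 112, 101, 70.2, 103 and 100.3 TPM in Con replicates 1 to 5. Fbxo32 rose by 1.90 ± 0.489 on the log2 scale (adjusted p = 0.00127). In both, CAC replicates 1 and 2 were highest and replicate 5 lowest, with replicate 5 still above every Con library. Fbxo31 averaged 221 ± 118 TPM in CAC libraries and 70.9 ± 5.92 TPM in Con libraries (log2 change 1.48, adjusted p = 2.98e-05) and the SOCS-box protein Asb11 averaged 255 ± 76.6 TPM in CAC libraries and 120 ± 10.4 TPM in Con libraries (1.04, adjusted p = 4.74e-06). Fbxo40, which marks the insulin signalling protein IRS1, averaged 151 ± 15.1 TPM in CAC libraries and 160.1 ± 9.21 TPM in Con libraries and was not called as deposited (adjusted p = 0.393) but was lower after rescaling (-0.41, adjusted p = 0.00313). Of 27 ligases, 14 rose and 1 fell as deposited, and 6 rose and 6 fell after rescaling, so the list as a whole lay near all genes (51.8% higher) while Trim63, Fbxo32 and Fbxo31 lay far above them.

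The Trim63 promoter is shown with the motifs of the glucocorticoid receptor and of FoxO factors, whose targets were described above. The RefSeq window on GRCm38.p6, plus strand, is chr4:134314870-134315169. The first capitals mark ACANNNTGT, the core of a glucocorticoid response element, which reads alike on both strands; the second mark the FoxO motif GTAAACA, here on the opposite strand.
Trim63: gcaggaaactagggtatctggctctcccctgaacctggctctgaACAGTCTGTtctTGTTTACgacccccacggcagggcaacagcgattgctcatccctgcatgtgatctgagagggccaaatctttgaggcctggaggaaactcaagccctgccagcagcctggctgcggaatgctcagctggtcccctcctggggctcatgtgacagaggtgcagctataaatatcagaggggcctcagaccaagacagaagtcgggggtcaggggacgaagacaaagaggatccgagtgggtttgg
The 2 matches lie 3 bases apart and do not overlap. Of all windows, 6.85% held at least 1 match of ACANNNTGT and 3.65% at least 1 of GTAAACA.

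Downstream of the ligases, most proteasome genes rose as deposited. Psmd4, a ubiquitin receptor of its cap, had 344, 229, 145, 179 and 135 TPM in CAC replicates 1 to 5, against 101, 93.1, 85, 92 and 91 TPM in Con replicates 1 to 5. Psmd4 rose by 1.07 ± 0.175 on the log2 scale (adjusted p = 7.14e-06). Psma7 of the core averaged 117 ± 47.5 TPM in CAC libraries and 58 ± 4.0 TPM in Con libraries. The cap subunits Psmd8 and Psmd2 averaged 139 ± 57.4 TPM in CAC libraries and 69.5 ± 10.5 TPM in Con libraries, and 259.8 ± 103 TPM in CAC libraries and 143 ± 9.99 TPM in Con libraries. Of 41 proteasome genes, 36 rose and 0 fell as deposited, and 9 rose and 3 fell after rescaling, and the median log2 change of 0.482 became 0.155. The higher part of the proteasome genes was 87.8% as deposited and 22% after rescaling, against 51.8% and 14.4% of all genes. Psmb7 and the activator subunit Psme1 were not called as deposited (log2 changes 0.12, adjusted p = 0.121, and -0.14, adjusted p = 0.241). Ubb, one of the genes for ubiquitin itself, had 3403, 3479.6, 1857, 2112 and 1828 TPM in CAC replicates 1 to 5, against 492, 1206, 749, 1200.2 and 885 TPM in Con replicates 1 to 5. Ubb rose by 1.50 ± 0.329 on the log2 scale (adjusted p = 0.000276). Of 27 ubiquitin genes and conjugating enzymes, 16 rose and 3 fell as deposited, and 3 rose and 7 fell after rescaling (as deposited, 8 rose in a fit of the CAC and Con 6-week libraries alone). Their higher part was 59.3% as deposited and 11.1% after rescaling, the latter under that of all genes.

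Most autophagy and lysosome genes rose as deposited, with smaller changes. Map1lc3b (LC3B), which coats the forming autophagosome, had 348, 281, 151, 161 and 139 TPM in CAC replicates 1 to 5, against 82.1, 82.4, 84.9, 80 and 75 TPM in Con replicates 1 to 5. Map1lc3b rose by 1.30 ± 0.21 on the log2 scale (adjusted p = 5.14e-06). The cargo receptor Sqstm1 (p62) averaged 666 ± 364 TPM in CAC libraries and 308 ± 21 TPM in Con libraries. The mitophagy receptor Bnip3 averaged 384 ± 167 TPM in CAC libraries and 189 ± 30.1 TPM in Con libraries, and the LC3 relative Gabarapl1 averaged 127 ± 60 TPM in CAC libraries and 59.6 ± 8.57 TPM in Con libraries. Bnip3 and Gabarapl1 were not called after rescaling (adjusted p = 0.0568 and 0.0975), and Gabarapl1 lost its call when CAC replicate 1 was left out (adjusted p = 0.0619). Cathepsin L, Ctsl, a lysosomal protease, had 873, 642, 221, 319.8 and 234 TPM in CAC replicates 1 to 5, against 190.4, 158, 164, 123 and 113 TPM in Con replicates 1 to 5. Ctsl rose by 1.41 ± 0.35 on the log2 scale (adjusted p = 0.000925). Of 35 autophagy genes, 26 rose and 1 fell as deposited, and 6 rose and 4 fell after rescaling. The higher part of the autophagy genes was 74.3% as deposited and 17.1% after rescaling, against 51.8% and 14.4% of all genes. Of 34 lysosome genes, 27 rose and 0 fell as deposited, and 12 rose and 2 fell after rescaling; Psap and the proton pump subunit Atp6v1g1 were not called (log2 changes 0.07, adjusted p = 0.409, and 0.03, adjusted p = 0.84). Of 13 calpains and caspases, 8 rose and 0 fell as deposited, and 2 rose and 1 fell after rescaling. Their higher part was 61.5% as deposited and 15.4% after rescaling. Capn1 averaged 62.9 ± 4.81 TPM in CAC libraries and 58.1 ± 5.07 TPM in Con libraries, and Capn3, the muscle calpain, averaged 57.4 ± 8.67 TPM in CAC libraries and 64.4 ± 6.63 TPM in Con libraries. Neither was called as deposited, while Capn3 was lower after rescaling (-0.49, adjusted p = 0.00457).

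Stress and growth arrest genes rose in part, and some clock genes changed. The AP-1 subunit Junb had 131, 178, 57.9, 91.6 and 58.5 TPM in CAC replicates 1 to 5, against 19.8, 8.11, 8.84, 6.66 and 13.8 TPM in Con replicates 1 to 5. Junb rose by 3.03 ± 0.348 on the log2 scale (adjusted p = 5.42e-09), and among 21 AP-1 and immediate early genes 14 rose and 0 fell as deposited, and 7 rose and 0 fell after rescaling. Nr4a1, another early gene, averaged 166 ± 51.1 TPM in CAC libraries and 142 ± 60.9 TPM in Con libraries and was not called (adjusted p = 0.456). Gadd45a had 133, 97.9, 39.4, 44.4 and 39.4 TPM in CAC replicates 1 to 5, against 19.1, 33.3, 38, 16.5 and 17.2 TPM in Con replicates 1 to 5. Gadd45a rose by 1.37 ± 0.352 on the log2 scale (adjusted p = 0.0013). The cell cycle inhibitor Cdkn1a (p21) had 114, 53.5, 69.2, 34.7 and 27.6 TPM in CAC replicates 1 to 5, against 40.9, 9.83, 27.9, 15.3 and 11.1 TPM in Con replicates 1 to 5. Cdkn1a rose by 1.49 ± 0.461 on the log2 scale (adjusted p = 0.00589), with overlap. Of 24 growth arrest and p53 genes, 15 rose and 1 fell as deposited, and 6 rose and 1 fell after rescaling. The clock output gene Dbp had 32.5, 63.5, 7.4, 109 and 68.1 TPM in CAC replicates 1 to 5, against 149, 117, 96, 60 and 185 TPM in Con replicates 1 to 5. Dbp fell by 1.43 ± 0.486 on the log2 scale (adjusted p = 0.0115). CAC replicate 3 was the lowest library, and CAC replicates 2, 4 and 5 lay within the range of Con; without replicate 3 the change was -0.84 and the call was lost (adjusted p = 0.112), as it was in a fit of the CAC and Con 6-week libraries alone (adjusted p = 0.0612). Its antagonist Nfil3 averaged 94.3 ± 51.6 TPM in CAC libraries and 23.5 ± 9.79 TPM in Con libraries (log2 change 1.85, adjusted p = 0.00328). Of 20 clock genes, 8 rose and 2 fell as deposited, and 3 rose and 3 fell after rescaling (as deposited, 5 rose without CAC replicate 1); the higher part as deposited, 40%, was under the 51.8% of all genes. The hour of tissue collection is not given in the sources used here.

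Genes of protein synthesis rose in the same libraries. Of 77 cytoplasmic ribosomal proteins, 76 rose and 0 fell as deposited, and 44 rose and 0 fell after rescaling, with a median log2 change of 0.616 as deposited and 0.288 after rescaling. Rpl10 had 133, 74.2, 78, 101 and 66.7 TPM in CAC replicates 1 to 5, against 55.3, 40.1, 44.3, 48.1 and 46.7 TPM in Con replicates 1 to 5. Rpl10 rose by 0.90 ± 0.174 on the log2 scale (adjusted p = 7.17e-05). The list's median over the Con mean was 0.95, 0.51, 0.62, 0.73 and 0.23 in CAC replicates 1 to 5. Replicate 5 lay under 0.275, the median change of all genes over the CAC group together. That library also had the smallest rescaling divisor of the CAC libraries at 6 weeks, 1.1359. The 1 uncalled member was Rps26, at 801 ± 186 TPM in CAC libraries and 576 ± 58.6 TPM in Con libraries (adjusted p = 0.781, or 0.0274 in a fit of the CAC and Con 6-week libraries alone). Myc, which drives ribosome building, had 10.8, 11.4, 6.62, 11 and 6.99 TPM in CAC replicates 1 to 5, against 2.65, 1.59, 2.04, 1.82 and 2.76 TPM in Con replicates 1 to 5. Myc rose by 1.69 ± 0.258 on the log2 scale (adjusted p = 2.24e-06), and of 32 genes of ribosome assembly 27 rose and 0 fell as deposited, and 9 rose and 2 fell after rescaling. Of 34 translation factors, 31 rose and 0 fell as deposited, and 12 rose and 0 fell after rescaling. The elongation factor Eef2 averaged 2209 ± 184 TPM in CAC libraries and 1070.5 ± 93.5 TPM in Con libraries, and Eef1a1 averaged 693 ± 106 TPM in CAC libraries and 387 ± 99.3 TPM in Con libraries. The muscle form Eef1a2 averaged 1559 ± 185 TPM in CAC libraries and 1339 ± 157 TPM in Con libraries, and was not called (adjusted p = 0.0577). The rises held both 4E-BP1, a brake on translation, and the ribosome.

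Some chaperone genes and most endoplasmic reticulum stress genes rose as deposited. Hspb7, a small heat shock protein of muscle, averaged 1074 ± 636 TPM in CAC libraries and 323 ± 135 TPM in Con libraries (log2 change 1.63, adjusted p = 6.61e-05), and the chaperone Hsp90ab1 averaged 1246 ± 393 TPM in CAC libraries and 701 ± 49.8 TPM in Con libraries. Of 32 chaperones, 20 rose and 2 fell as deposited, and 4 rose and 5 fell after rescaling (as deposited, 12 rose without CAC replicate 1, 9 rose without replicate 1 of both groups and 12 rose in a fit of the CAC and Con 6-week libraries alone). The higher part of the chaperones was 62.5% as deposited and 12.5% after rescaling, against 51.8% and 14.4% of all genes. Hspd1, the mitochondrial chaperonin, was not called as deposited (adjusted p = 0.671) and was lower after rescaling (-0.38, adjusted p = 0.0036). Chac1, which degrades glutathione and is induced by the factor ATF4, had 344, 327, 78.9, 197 and 243 TPM in CAC replicates 1 to 5, against 49.5, 99.8, 26.1, 29.1 and 28.1 TPM in Con replicates 1 to 5. Chac1 rose by 2.36 ± 0.521 on the log2 scale (adjusted p = 0.000285), with overlap. Atf4 averaged 367 ± 83.3 TPM in CAC libraries and 202 ± 18.2 TPM in Con libraries and its target Asns, asparagine synthetase, averaged 5.45 ± 1.34 TPM in CAC libraries and 1.98 ± 0.574 TPM in Con libraries. Of 30 genes of this list, 22 rose and 0 fell as deposited, and 7 rose and 1 fell after rescaling; the folding enzyme Pdia6 was not called (log2 change 0.12, adjusted p = 0.451). Amino acid carriers rose too: Slc43a1, a carrier of large neutral amino acids, had 19.1, 21.2, 9.28, 15.5 and 11.6 TPM in CAC replicates 1 to 5, against 5.68, 3.88, 2.6, 2.57 and 3.32 TPM in Con replicates 1 to 5 (1.81, adjusted p = 4.05e-05), and of 27 genes of amino acid transport and glutamine synthesis 17 rose and 0 fell as deposited, and 11 rose and 5 fell after rescaling.

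**Figure D3:**
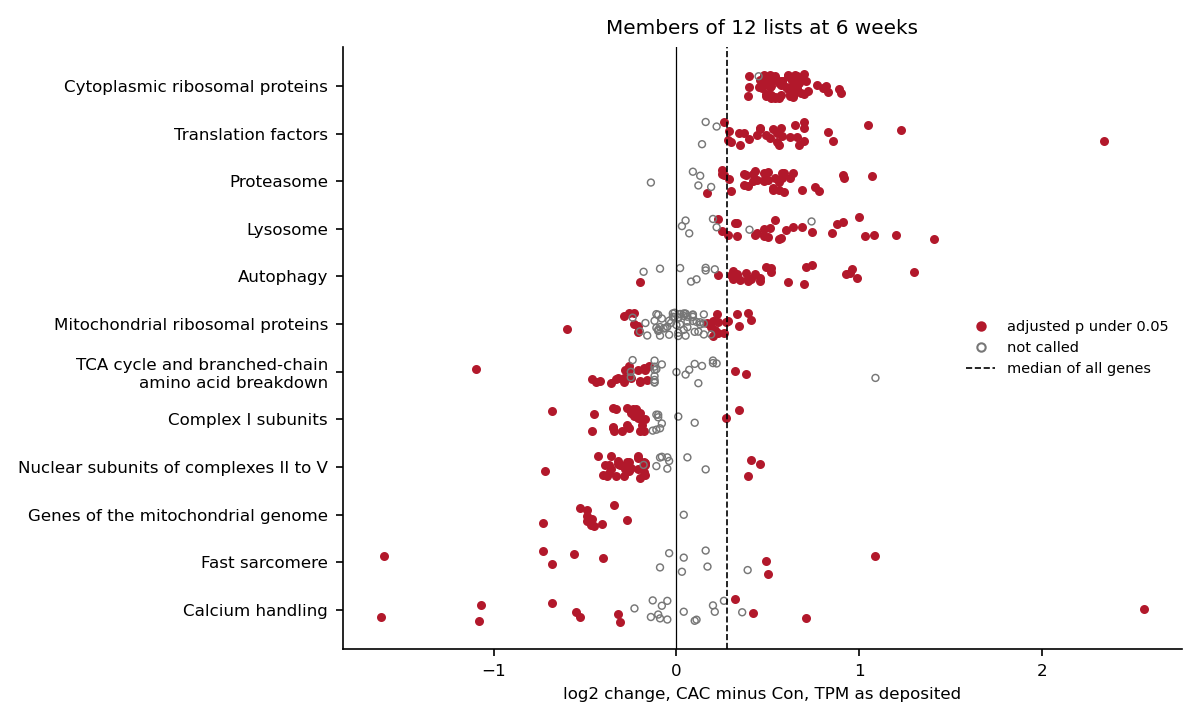
Log2 change (CAC minus Con, TPM as deposited) of each tested member of 12 gene lists; filled points were called and open points were not. Ribosomal proteins centre on 0.616, complex I on -0.218 and the mitochondrial genome on -0.473, against 0.275 for all genes (dashed line).

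Mitochondrial genes formed the main group of falls. Of the 13 protein genes of the mitochondrial genome, 12 fell, both as deposited and after rescaling. In bulk tissue, fewer cells of a type and less RNA per cell cannot be told apart. mt-Co1, a core subunit of cytochrome oxidase, had 41062, 48695, 52709, 56869 and 62798 TPM in CAC replicates 1 to 5, against 64463, 70852, 72160.4, 77119.7 and 70054 TPM in Con replicates 1 to 5. mt-Co1 fell by 0.45 ± 0.0912 on the log2 scale (adjusted p = 0.000121), without overlap. mt-Nd6, a complex I subunit encoded on the light strand, had 125, 146, 107, 110.5 and 127 TPM in CAC replicates 1 to 5, against 169, 319, 198, 243 and 133 TPM in Con replicates 1 to 5. mt-Nd6 fell by 0.73 ± 0.208 on the log2 scale (adjusted p = 0.00322), with overlap. The uncalled gene was mt-Atp8, at 14763 ± 3993 TPM in CAC libraries and 15122 ± 6218 TPM in Con libraries (adjusted p = 0.914); mt-Atp6 next to it averaged 30855 ± 4593 TPM in CAC libraries and 36965 ± 4169.6 TPM in Con libraries, and its adjusted p of 0.00725 became 0.0614 when CAC replicate 1 was left out. The list's median over the Con mean was -0.75, -0.53, -0.42, -0.42 and -0.12 in CAC replicates 1 to 5. All 5 CAC medians were below 0, and replicate 5 was nearest to it.

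Most nuclear genes of the respiratory chain fell, with smaller median changes. Of 37 complex I subunits, 2 rose and 26 fell as deposited, and 0 rose and 35 fell after rescaling (as deposited, 15 fell in a fit of the CAC and Con 6-week libraries alone), and of 42 nuclear subunits of complexes II to V, 3 rose and 30 fell as deposited, and 0 rose and 38 fell after rescaling (as deposited, 18 fell in a fit of the CAC and Con 6-week libraries alone). The median changes were -0.218 and -0.213 as deposited, against 0.275 for all genes. Ndufs1, which carries the first iron-sulphur centres of complex I, had 109, 126, 140.3, 135 and 156 TPM in CAC replicates 1 to 5, against 197, 222, 231, 198 and 218 TPM in Con replicates 1 to 5. Ndufs1 fell by 0.68 ± 0.109 on the log2 scale (adjusted p = 4.51e-06). Cox7a1, the muscle form of a cytochrome oxidase subunit, had 269.6, 416, 469, 469.8 and 505 TPM in CAC replicates 1 to 5, against 532, 679, 723, 795 and 723 TPM in Con replicates 1 to 5. Cox7a1 fell by 0.72 ± 0.157 on the log2 scale (adjusted p = 0.000273). The groups did not overlap in either gene. Cox6a1 and Cox8a, the forms of most other tissues, rose as deposited (log2 changes 0.41 and 0.46) and were not called after rescaling (adjusted p = 0.506 and 0.189). The muscle form Cox6a2 averaged 2541 ± 437 TPM in CAC libraries and 2265 ± 277 TPM in Con libraries, and the muscle form Cox8b averaged 2149 ± 205 TPM in CAC libraries and 2217 ± 234 TPM in Con libraries. Neither was called as deposited, and Cox8b was lower after rescaling (-0.37, adjusted p = 0.0107).

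Mitochondrial ribosomal proteins depended on the scale, since of 75 tested 15 rose and 7 fell as deposited, and 0 rose and 53 fell after rescaling (as deposited, 1 rose without CAC replicate 1, 1 rose without replicate 1 of both groups, 2 rose in a fit of the CAC and Con 6-week libraries alone and 2 fell in a fit of the CAC and Con 6-week libraries alone). Of 23 regulators of mitochondrial mass, 6 rose and 2 fell as deposited, and 1 rose and 10 fell after rescaling. Ppargc1a (PGC-1α), the main coactivator of mitochondrial genes, was not called, while Prkag3, the AMPK subunit of fast fibres, averaged 29.7 ± 11.9 TPM in CAC libraries and 67.3 ± 17.4 TPM in Con libraries (log2 change -1.23, adjusted p = 0.00059). Of 44 genes of the TCA cycle and branched-chain amino acid breakdown, 2 rose and 20 fell as deposited, and 0 rose and 33 fell after rescaling (as deposited, 12 fell in a fit of the CAC and Con 6-week libraries alone). Pyruvate carboxylase, Pcx, which refills the cycle with oxaloacetate, had 90.9, 115, 83.1, 85 and 94 TPM in CAC replicates 1 to 5, against 133, 130.2, 158, 306 and 386 TPM in Con replicates 1 to 5. Pcx fell by 1.10 ± 0.341 on the log2 scale (adjusted p = 0.00601). The malate dehydrogenase Mdh2 averaged 631 ± 46.2 TPM in CAC libraries and 855 ± 59 TPM in Con libraries, and Sucla2, which makes succinate, averaged 159.9 ± 14 TPM in CAC libraries and 214 ± 22.1 TPM in Con libraries. Of 30 genes of fatty acid oxidation, 6 rose and 8 fell as deposited, and 0 rose and 19 fell after rescaling (as deposited, 3 rose without replicate 1 of both groups); Acadl, a dehydrogenase of long chains, averaged 302 ± 53.2 TPM in CAC libraries and 291 ± 30.9 TPM in Con libraries and was not called (adjusted p = 0.831).

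Fuel stores and carriers changed in both directions. Fabp3, the fatty acid carrier of oxidative muscle, chosen after its values were seen, had 796, 617, 804, 672 and 995 TPM in CAC replicates 1 to 5, against 963, 1384, 1675, 1731 and 1578 TPM in Con replicates 1 to 5. Fabp3 fell by 0.91 ± 0.23 on the log2 scale (adjusted p = 0.00114). Plin4, a lipid droplet coat, averaged 459 ± 134 TPM in CAC libraries and 167 ± 25.1 TPM in Con libraries, and Lpin1, which makes diacylglycerol, averaged 223 ± 76.1 TPM in CAC libraries and 85.4 ± 5.05 TPM in Con libraries. Of 25 lipid genes, 11 rose and 3 fell as deposited, and 4 rose and 6 fell after rescaling (as deposited, 7 rose without replicate 1 of both groups, 1 fell without CAC replicate 1 and 1 fell in a fit of the CAC and Con 6-week libraries alone); Ucp3, the muscle uncoupling protein, averaged 79.3 ± 19 TPM in CAC libraries and 79 ± 27.9 TPM in Con libraries and was not called (adjusted p = 0.901). Of 42 genes of glycolysis and glycogen, 16 rose and 11 fell as deposited, and 6 rose and 17 fell after rescaling (as deposited, 6 fell without CAC replicate 1 and 6 fell without replicate 1 of both groups). The phosphoglucomutase Pgm2 averaged 520.3 ± 146 TPM in CAC libraries and 914 ± 137 TPM in Con libraries, and Ugp2, on the path to glycogen, averaged 939.8 ± 550.4 TPM in CAC libraries and 447 ± 22.2 TPM in Con libraries. Ppp1r3c, which brings a phosphatase to glycogen, had 759, 619.7, 1345, 290.1 and 574 TPM in CAC replicates 1 to 5, against 221, 147, 310.2, 299 and 185 TPM in Con replicates 1 to 5; its call (1.51, adjusted p = 0.036) was lost after rescaling (adjusted p = 0.135) and without any one of 5 libraries (adjusted p up to 0.103).

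Iron, creatine and antioxidant genes were mixed. The transferrin receptor Tfrc, which brings iron into the cell, had 5.45, 4.75, 23.3, 16.3 and 15.4 TPM in CAC replicates 1 to 5, against 35.7, 14.2, 21.5, 31.3 and 35.6 TPM in Con replicates 1 to 5. Tfrc fell by 1.17 ± 0.421 on the log2 scale (adjusted p = 0.0162); leaving out CAC replicate 1 removed the call (adjusted p = 0.0732), as did leaving out CAC replicate 2. Myoglobin, Mb, averaged 2719.6 ± 947 TPM in CAC libraries and 4761 ± 1119.6 TPM in Con libraries (log2 change -0.86, adjusted p = 0.00116). The ferrireductase Steap4 averaged 52.1 ± 4.43 TPM in CAC libraries and 19.2 ± 4.91 TPM in Con libraries, transferrin, Trf, averaged 31.1 ± 13.7 TPM in CAC libraries and 10.3 ± 3.97 TPM in Con libraries, and both rose. Of 18 iron genes, 9 rose and 3 fell as deposited, and 4 rose and 5 fell after rescaling (as deposited, 1 fell without CAC replicate 1 and 1 fell without replicate 1 of both groups). Car3, the carbonic anhydrase of slow fibres and fat, had 763, 1207, 1660, 1367 and 1778 TPM in CAC replicates 1 to 5, against 2738, 3749, 3568, 3272 and 2625 TPM in Con replicates 1 to 5. Car3 fell by 1.28 ± 0.231 on the log2 scale (adjusted p = 2.74e-05). Of 18 polyamine and creatine genes, 7 rose and 5 fell as deposited, and 2 rose and 6 fell after rescaling (as deposited, 3 fell without replicate 1 of both groups). The mitochondrial creatine kinase Ckmt2 averaged 1042 ± 217 TPM in CAC libraries and 1690 ± 277 TPM in Con libraries, and Sat1, which acetylates polyamines, averaged 27.6 ± 12.4 TPM in CAC libraries and 9.89 ± 2.4 TPM in Con libraries. Odc1, the first polyamine enzyme, was called (log2 change 0.43, adjusted p = 0.0403), and the call was lost after rescaling (adjusted p = 0.683) and without CAC replicate 1 (log2 change 0.26, adjusted p = 0.23). Of 34 antioxidant genes, 22 rose and 2 fell as deposited, and 11 rose and 5 fell after rescaling. The rises included the master factor Nfe2l2 (NRF2), at 40.2 ± 10.9 TPM in CAC libraries and 19.4 ± 2.37 TPM in Con libraries, and the secreted peroxidase Gpx3, at 1212 ± 423 TPM in CAC libraries and 427 ± 101 TPM in Con libraries.

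The contractile genes showed no common direction. Myh4, the IIB myosin that fills most of this muscle, had 10566, 16013, 14802, 13116 and 14223 TPM in CAC replicates 1 to 5, against 15231, 16394, 12519.6, 10454 and 12936 TPM in Con replicates 1 to 5 (log2 change 0.03, adjusted p = 0.863), with full overlap. The IIX myosin Myh1 averaged 2105 ± 490.4 TPM in CAC libraries and 1585 ± 241 TPM in Con libraries. The IIA myosin Myh2 averaged 938 ± 350.3 TPM in CAC libraries and 944 ± 231 TPM in Con libraries, and the slow myosin Myh7 averaged 277 ± 159 TPM in CAC libraries and 214 ± 83.3 TPM in Con libraries. None of these 3 was called (adjusted p = 0.077, 0.883 and 0.368). The fast regulatory light chain Mylpf had 7103, 13928, 12674, 10562 and 13908 TPM in CAC replicates 1 to 5, against 18902, 19691, 17687, 15746 and 18718 TPM in Con replicates 1 to 5. Mylpf fell by 0.68 ± 0.158 on the log2 scale (adjusted p = 0.000508), without overlap. Tnnc2, fast troponin C, averaged 16955 ± 2488 TPM in CAC libraries and 22256 ± 1415 TPM in Con libraries (log2 change -0.40, adjusted p = 0.00161), and the light chain Myl1 averaged 4256 ± 1173 TPM in CAC libraries and 6867 ± 1067 TPM in Con libraries (-0.73, adjusted p = 0.00197). Without replicate 1 of both groups the change of Myl1 was -0.48 and was not called (adjusted p = 0.054). Myoz3, a Z-disc protein of fast fibres, averaged 55.4 ± 25.9 TPM in CAC libraries and 149 ± 16.1 TPM in Con libraries (-1.60, adjusted p = 0.000451). Actn3, the α-actinin of fast fibres, was higher as deposited (log2 change 0.49, adjusted p = 0.00634) and not called after rescaling (adjusted p = 0.497). Of 15 fast sarcomere genes, 3 rose and 5 fell as deposited, and 1 rose and 7 fell after rescaling (as deposited, 3 fell without replicate 1 of both groups), and of 13 slow ones, 3 rose and 0 fell as deposited, and 2 rose and 0 fell after rescaling (as deposited, 1 rose in a fit of the CAC and Con 6-week libraries alone).

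Among called genes whose groups did not overlap, predicted models, pseudogenes and clone names set aside, Actc1 had the largest fall. This cardiac actin, which regenerating fibres also make, had 5.24, 47.4, 31.1, 20.7 and 57.9 TPM in CAC replicates 1 to 5, against 179, 602, 679.9, 105 and 201 TPM in Con replicates 1 to 5. Actc1 fell by 3.39 ± 0.657 on the log2 scale (adjusted p = 6.81e-05). The stretch-responsive protein Ankrd2 went the other way with 707, 409.9, 335, 1994 and 393 TPM in CAC replicates 1 to 5, against 73.4, 93.7, 122, 263 and 211 TPM in Con replicates 1 to 5. Ankrd2 rose by 2.12 ± 0.386 on the log2 scale (adjusted p = 3.1e-05). Csrp3 (muscle LIM protein) had 168, 140, 96.8, 981 and 71.3 TPM in CAC replicates 1 to 5, against 43.8, 40, 40.4, 140.3 and 85.2 TPM in Con replicates 1 to 5. Csrp3 rose by 1.50 ± 0.457 on the log2 scale (adjusted p = 0.00532). In Csrp3 the groups overlapped, and leaving out CAC replicate 4 gave a change of 0.87 that was not called (adjusted p = 0.0723), as was the case in a fit of the CAC and Con 6-week libraries alone (adjusted p = 0.0643). Mybph averaged 71.5 ± 56.6 TPM in CAC libraries and 235 ± 123 TPM in Con libraries, and its fall (-2.06, adjusted p = 0.00941) lost its call when CAC replicate 1 was left out (adjusted p = 0.0778). Of 13 embryonic and cardiac sarcomere genes, 6 rose and 2 fell as deposited, and 2 rose and 3 fell after rescaling. Of 28 giant, Z-disc and M-band proteins, 14 rose and 3 fell as deposited, and 3 rose and 7 fell after rescaling. The higher part of these was 50% as deposited and 10.7% after rescaling, both under the 51.8% and 14.4% of all genes. Desmin, Des, averaged 3829 ± 797 TPM in CAC libraries and 1482 ± 267 TPM in Con libraries, and filamin C, Flnc, averaged 388 ± 163 TPM in CAC libraries and 151 ± 25.5 TPM in Con libraries, while Tcap was not called (adjusted p = 0.444). Of 20 genes of the dystrophin complex, 14 rose and 0 fell as deposited, and 2 rose and 2 fell after rescaling. Their higher part was 70% as deposited, over that of all genes, and 10% after rescaling, under it. Trim72, which patches the torn membrane, averaged 365 ± 35 TPM in CAC libraries and 157 ± 14.9 TPM in Con libraries (log2 change 1.21, adjusted p = 9.53e-12).

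Calcium handling held some of the clearest falls. Calsequestrin 1, Casq1 (chromosome 1, 172209894 to 172219868, - strand), which stores calcium in the sarcoplasmic reticulum of fast fibres, had 356, 1054, 1606, 980.1 and 1473 TPM in CAC replicates 1 to 5, against 3326, 3175, 2757, 2579 and 3195 TPM in Con replicates 1 to 5. Casq1 fell by 1.62 ± 0.361 on the log2 scale (adjusted p = 0.000327). Parvalbumin, Pvalb, the calcium buffer of fast fibres, had 2974, 10427, 9948, 5961 and 10187 TPM in CAC replicates 1 to 5, against 16112, 16713, 15163, 13159 and 14742 TPM in Con replicates 1 to 5. Pvalb fell by 1.08 ± 0.246 on the log2 scale (adjusted p = 0.000397). CAC replicate 1 was lowest in both, followed by replicate 4, and no library of one group reached the other. Sarcolipin, Sln, which slows the calcium pump, had 155, 57, 50.8, 137 and 24 TPM in CAC replicates 1 to 5, against 5.75, 11.6, 9.48, 18.6 and 12.1 TPM in Con replicates 1 to 5. Sln rose by 2.56 ± 0.484 on the log2 scale (adjusted p = 5.13e-05). The pump Atp2a1 itself had 29361, 27696, 25810.2, 23327 and 22049 TPM in CAC replicates 1 to 5, against 20973, 21629, 17115, 16018 and 20469 TPM in Con replicates 1 to 5; it was higher as deposited (0.42, adjusted p = 0.00114) and not called after rescaling (log2 change 0.09, adjusted p = 0.58). The release channel Ryr1 averaged 675 ± 77.7 TPM in CAC libraries and 584 ± 80.1 TPM in Con libraries and was not called (adjusted p = 0.0536). Of 27 calcium genes, 4 rose and 8 fell as deposited, and 1 rose and 15 fell after rescaling (as deposited, 5 fell without CAC replicate 1 and 5 fell without replicate 1 of both groups). Of 15 channels and pumps of the surface membrane, 2 rose and 0 fell as deposited, and 1 rose and 7 fell after rescaling.

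Genes that rise when a muscle loses its nerve did not move together. The acetylcholine receptor subunit Chrna1 had 32, 36.4, 19.9, 20.4 and 21.9 TPM in CAC replicates 1 to 5, against 10.8, 9.51, 10.2, 8.66 and 10.2 TPM in Con replicates 1 to 5. Chrna1 rose by 1.28 ± 0.283 on the log2 scale (adjusted p = 0.000288). Myogenin, Myog, which drives such genes, had 10.3, 9.72, 18.1, 9.73 and 4.68 TPM in CAC replicates 1 to 5, against 7.44, 7.34, 40.9, 11.1 and 14 TPM in Con replicates 1 to 5 (log2 change -0.39, adjusted p = 0.284), with overlap and no call. Of 19 neuromuscular junction and denervation genes, 6 rose and 3 fell as deposited, and 2 rose and 5 fell after rescaling (as deposited, 0 fell without CAC replicate 1, 0 fell without replicate 1 of both groups and 1 fell in a fit of the CAC and Con 6-week libraries alone). Musk, the kinase of the junction, was called as deposited (0.53, adjusted p = 0.0461) and not after rescaling (adjusted p = 0.415) or without CAC replicate 1 (adjusted p = 0.194). Of 21 satellite cell and myogenic regulators, 10 rose and 0 fell as deposited, and 4 rose and 1 fell after rescaling. Their higher part was 47.6% as deposited and 19% after rescaling, against 51.8% and 14.4% of all genes. Myf6 (MRF4), the regulator of mature fibres, averaged 232 ± 70.7 TPM in CAC libraries and 97 ± 11.5 TPM in Con libraries (log2 change 1.20, adjusted p = 1.91e-05).

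Among secreted factors of muscle, osteocrin, Ostn (also musclin; chromosome 16, 27307489 to 27351212, + strand), which shields natriuretic peptides from clearance, had 7.2, 8.87, 10.4, 16.3 and 15.3 TPM in CAC replicates 1 to 5, against 135, 160.4, 92, 27.2 and 106 TPM in Con replicates 1 to 5. Ostn fell by 2.90 ± 0.433 on the log2 scale (adjusted p = 1.52e-06). The groups did not overlap, though Con replicate 4 lay far under the other Con libraries. Myostatin, Mstn, the growth brake, had 40.6, 43.3, 43.1, 26.3 and 40.5 TPM in CAC replicates 1 to 5, against 41.8, 28.3, 30.5, 27.5 and 24.5 TPM in Con replicates 1 to 5 and was not called (log2 change 0.34, adjusted p = 0.158); CAC replicate 4 was the lowest library of that group. Of 16 myokines, 4 rose and 5 fell as deposited, and 3 rose and 8 fell after rescaling (as deposited, 3 fell without CAC replicate 1 and 3 fell without replicate 1 of both groups). Of 28 genes of the myostatin and activin pathway, 6 rose and 4 fell as deposited, and 4 rose and 7 fell after rescaling (as deposited, 2 fell without CAC replicate 1 and 1 fell without replicate 1 of both groups). The BMP antagonist Nog averaged 24.8 ± 7.44 TPM in CAC libraries and 5.79 ± 1.11 TPM in Con libraries (log2 change 1.89, adjusted p = 5.44e-07) and Gdf11, the close relative of myostatin, averaged 1.12 ± 0.424 TPM in CAC libraries and 3.0 ± 0.485 TPM in Con libraries (-0.93, adjusted p = 6.5e-05, or -1.40 with a pseudocount of 0.1). Igf1, the growth factor, had 6.33, 6.02, 6.39, 4.49 and 6.24 TPM in CAC replicates 1 to 5, against 2.84, 2.87, 3.68, 1.51 and 2.17 TPM in Con replicates 1 to 5. Igf1 rose by 0.95 ± 0.206 on the log2 scale (adjusted p = 0.000227). Its binding protein Igfbp3 averaged 37.4 ± 27.8 TPM in CAC libraries and 11.3 ± 3.41 TPM in Con libraries, and Igfbp4 averaged 76.3 ± 8.87 TPM in CAC libraries and 26 ± 5.38 TPM in Con libraries. The insulin signalling adaptor Irs1, chosen after its values were seen, had 10.1, 9.66, 18.3, 6.05 and 7.52 TPM in CAC replicates 1 to 5, against 17.5, 20.3, 28.3, 16.5 and 14.5 TPM in Con replicates 1 to 5. Irs1 fell by 0.90 ± 0.242 on the log2 scale (adjusted p = 0.00184). Of 29 IGF and insulin genes, 22 rose and 2 fell as deposited, and 11 rose and 4 fell after rescaling; the list holds inhibitors such as Ddit4 and Eif4ebp1 as well as activators.

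**Figure D4:**
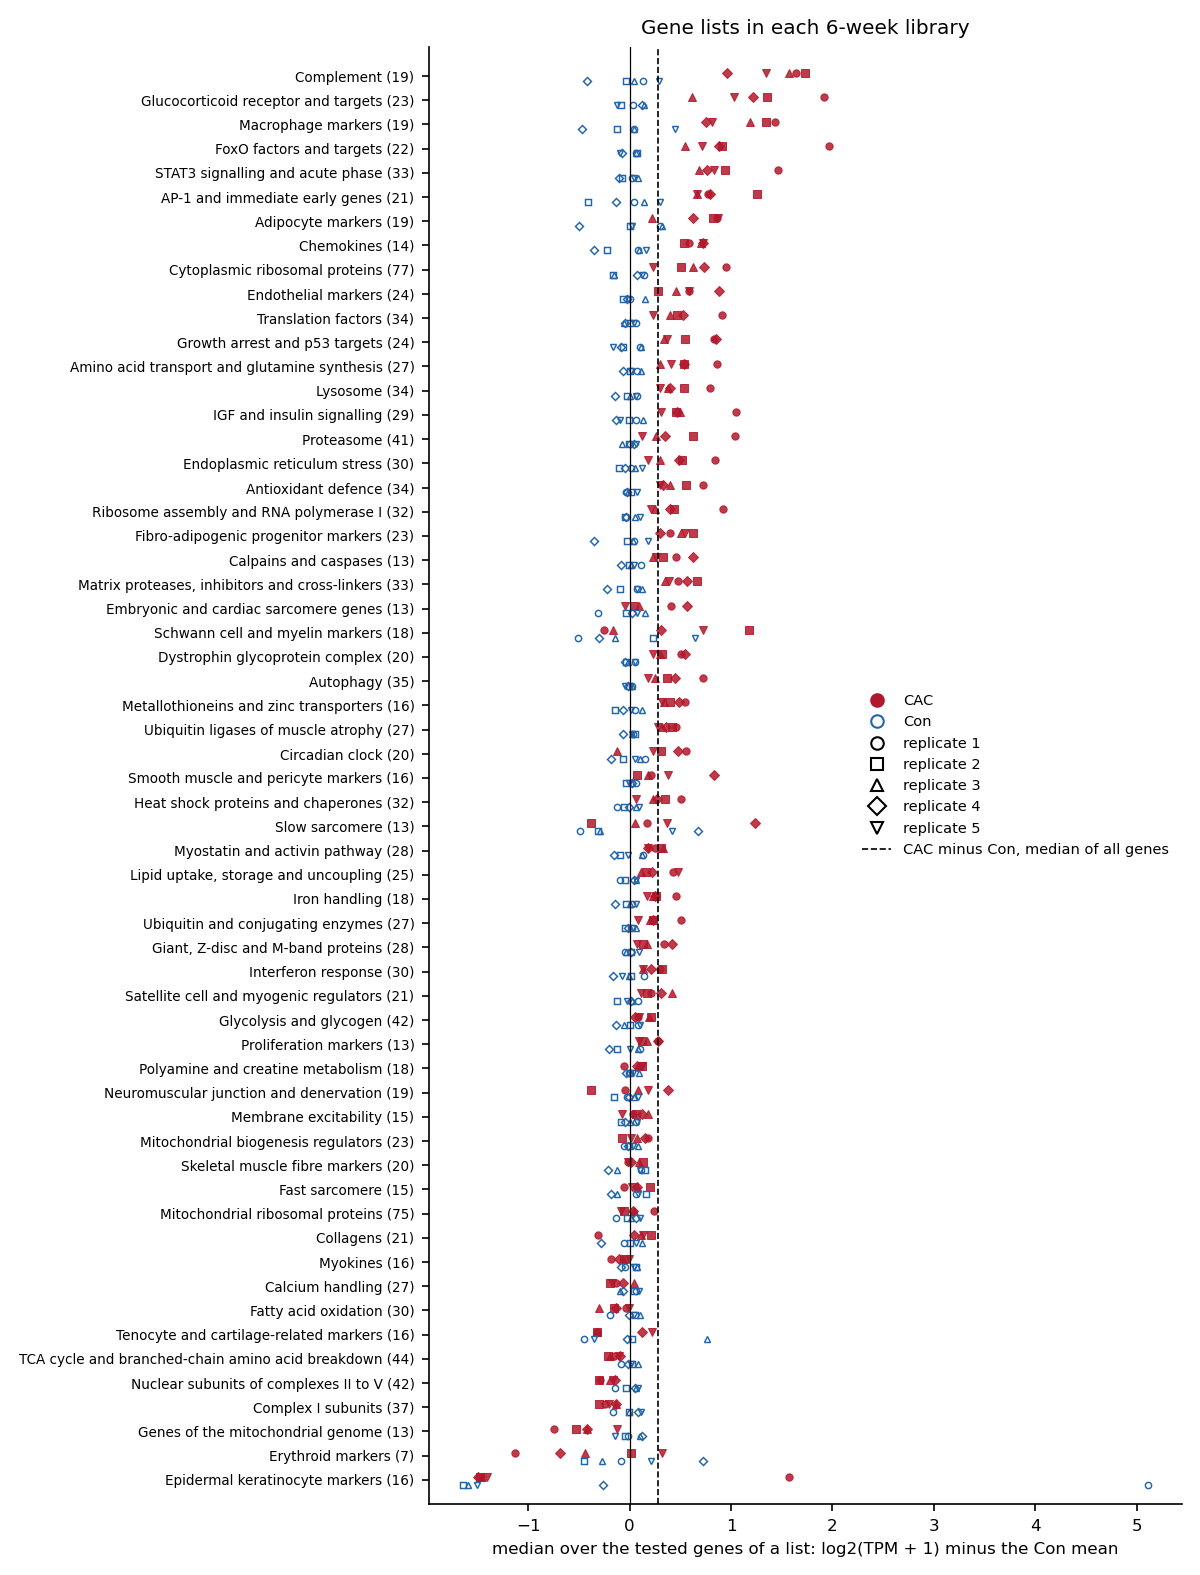
Gene lists in each 6-week library: the median over a list's tested genes (number in brackets) of log2(TPM + 1) minus the Con mean, for lists of at least 7 tested genes. CAC points are filled and Con points open; the dashed line is the median CAC minus Con change of all genes, 0.275. CAC replicate 1 lies far right in the FoxO (1.97) and glucocorticoid (1.92) lists, and Con replicate 1 in the keratinocyte list (5.11).

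Some matrix genes changed. Lox, which cross-links collagen, had 25.2, 23.8, 12.8, 16.8 and 15.5 TPM in CAC replicates 1 to 5, against 3.23, 2.12, 3.96, 2.45 and 1.61 TPM in Con replicates 1 to 5. Lox rose by 2.42 ± 0.359 on the log2 scale (adjusted p = 1.33e-06), and the protease Mmp3 averaged 9.8 ± 6.58 TPM in CAC libraries and 0.766 ± 0.397 TPM in Con libraries (log2 change 2.42, adjusted p = 0.000154). Of 33 matrix proteases, inhibitors and cross-linkers, 15 rose and 2 fell as deposited, and 9 rose and 2 fell after rescaling; the higher part as deposited, 45.5%, was under the 51.8% of all genes. Of 21 collagens, 4 rose and 2 fell as deposited, and 2 rose and 2 fell after rescaling. Col1a1, the main fibrillar collagen, had 10, 36.9, 33.4, 19.6 and 35.8 TPM in CAC replicates 1 to 5, against 20.2, 33.2, 54.5, 32.7 and 26.8 TPM in Con replicates 1 to 5 (log2 change -0.36, adjusted p = 0.571), and Col3a1 averaged 34.1 ± 17.7 TPM in CAC libraries and 26.6 ± 3.86 TPM in Con libraries (adjusted p = 0.772), neither of them called. The basement membrane collagen Col4a1 averaged 59.8 ± 7.02 TPM in CAC libraries and 31.6 ± 3.88 TPM in Con libraries (log2 change 0.90, adjusted p = 0.00159). Chad, chondroadherin of cartilage and tendon, had 0.943, 1.47, 1.97, 1.46 and 3.8 TPM in CAC replicates 1 to 5, against 8.07, 20.7, 36.8, 19.3 and 12.7 TPM in Con replicates 1 to 5. Chad fell by 2.72 ± 0.574 on the log2 scale (adjusted p = 0.000178). Of 16 tendon and cartilage genes, 1 rose and 4 fell as deposited, and 0 rose and 4 fell after rescaling; the falls included Nrep, at 17.2 ± 9.79 TPM in CAC libraries and 78.1 ± 15.2 TPM in Con libraries (-2.37, adjusted p = 7.48e-05). Fmod and Thbs4 of tendon were not called (adjusted p = 0.488 and 0.0575).

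Markers of some other cell types moved with these groups, and their part in the results above was not tested. Macrophage markers summed to 574, 613, 509.9, 354 and 371 TPM in CAC replicates 1 to 5, against 230.3, 174, 203, 119 and 282 TPM in Con replicates 1 to 5. Of 19 tested, 16 rose and 0 fell as deposited, and 11 rose and 0 fell after rescaling. Cd163, the haemoglobin scavenger receptor of resident macrophages, had 15.7, 11.7, 9.21, 7.75 and 7.7 TPM in CAC replicates 1 to 5, against 2.38, 2.05, 2.25, 0.849 and 3.31 TPM in Con replicates 1 to 5. Cd163 rose by 1.85 ± 0.35 on the log2 scale (adjusted p = 5.08e-05). Cd68 and the class II chain Cd74 were not called (log2 changes 0.74, adjusted p = 0.0521, and 0.08, adjusted p = 0.876). Endothelial markers summed to 834 to 1085 TPM in CAC and 539 to 629 TPM in Con, and of 24 tested 19 rose and 1 fell as deposited, and 9 rose and 1 fell after rescaling. Plvap, of the diaphragms of fenestrated vessels, had 90.5, 73.9, 65.4, 81.7 and 61.4 TPM in CAC replicates 1 to 5, against 20.5, 20.5, 21.3, 15 and 20.5 TPM in Con replicates 1 to 5. Plvap rose by 1.88 ± 0.231 on the log2 scale (adjusted p = 2.61e-08), while Cdh5, the cadherin of endothelial junctions, averaged 39 ± 6.0 TPM in CAC libraries and 34.7 ± 2.78 TPM in Con libraries and was not called (adjusted p = 0.256). Markers of fibro-adipogenic progenitors summed to 2504 to 3212 TPM in CAC and 1385 to 2131 TPM in Con. Of 23 tested 11 rose and 0 fell as deposited, and 8 rose and 0 fell after rescaling. The higher part of this list was 47.8% as deposited and 34.8% after rescaling, against 51.8% and 14.4% of all genes. Apod averaged 265 ± 60.1 TPM in CAC libraries and 38.5 ± 8.96 TPM in Con libraries (log2 change 2.76, adjusted p = 1.4e-08).

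Blood cells gave weaker signals. Neutrophil markers summed to 23.6, 8.18, 12.6, 17 and 15.6 TPM in CAC replicates 1 to 5, against 17.4, 3.57, 3.65, 4.47 and 4.26 TPM in Con replicates 1 to 5, so Con replicate 1 reached the level of the CAC libraries. Of 18 such markers 5 passed the filter on level and 2 rose, the receptors or secreted products Csf3r and Retnlg (log2 changes 0.57 and 0.81). The call of Retnlg was lost after rescaling (adjusted p = 0.0828) and without CAC replicate 1 (adjusted p = 0.0983), and with a pseudocount of 0.1 the changes were 1.50 and 2.08. The defining marker Ly6g averaged 0.0362 TPM in CAC and was at 0 in Con. Of 21 lymphocyte and plasma cell markers 2 passed the filter, Ighm and Igkc. The T cell gene Cd8b1 was at 0 in both groups, and Cd3e averaged 0 TPM in CAC and 0.00724 TPM in Con. The whole list summed to 8.98, 22.9, 16, 10.4 and 59.2 TPM in CAC replicates 1 to 5, against 25.3, 145, 135, 34.2 and 73.7 TPM in Con replicates 1 to 5. That sum was mostly Ighm, the heavy chain of IgM, with 6.62, 18.1, 15.2, 8.62 and 56.4 TPM in CAC replicates 1 to 5, against 21.3, 143, 133, 31 and 71.8 TPM in Con replicates 1 to 5. Ighm fell by 1.92 ± 0.505 on the log2 scale (adjusted p = 0.00157), where the groups overlapped and Con replicate 1 was the lowest Con library. Erythroid markers summed to 343 to 880.3 TPM in CAC and 459.5 to 1415 TPM in Con. Of 7 tested 1 fell, Bpgm, which makes the regulator of oxygen release by haemoglobin (log2 change -0.82, adjusted p = 0.00129); Hba-a2 had 2.47, 20.4, 10.4, 8.9 and 165 TPM in CAC replicates 1 to 5, against 237, 78.6, 198, 34.8 and 24.6 TPM in Con replicates 1 to 5 (adjusted p = 0.0952), and its copy Hba-a1 may share reads.

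Markers of fat summed to 3469.6 to 5023 TPM in CAC and 3995 to 5423 TPM in Con. Of 19 tested, 10 rose and 2 fell as deposited, and 3 rose and 3 fell after rescaling (as deposited, 6 rose without CAC replicate 1). The higher part of the fat markers, 52.6% as deposited and 15.8% after rescaling, was near the 51.8% and 14.4% of all genes. Adipoq, adiponectin, averaged 64.3 ± 19.3 TPM in CAC libraries and 39.4 ± 17.1 TPM in Con libraries, and was not called (adjusted p = 0.112), while Cfd, adipsin, averaged 978 ± 319.7 TPM in CAC libraries and 379.8 ± 146 TPM in Con libraries (log2 change 1.42, adjusted p = 0.00445). Smooth muscle and pericyte markers gave 6 rises and 2 falls of 16 as deposited, and 2 and 3 after rescaling. Of 18 Schwann cell genes 1 rose. Of 12 melanocyte and melanoma markers, 4 passed the filter and 2 rose, Ednrb and Gpnmb, which endothelium and macrophages also express; the list's sum was 22 to 29.1 TPM in CAC and 12.3 to 16.5 TPM in Con. The pigment genes Tyr, Tyrp1, Dct, Pmel and Mlana had means from 0 to 0.107 TPM in CAC and from 0.00581 to 0.263 TPM in Con. Of 13 proliferation genes tested of 25, 4 rose and 1 fell as deposited, and 2 rose and 1 fell after rescaling.

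The CAC libraries differed among themselves more than the Con libraries did. The median over all tested genes of the SD of log2(TPM + 1) was 0.216 in CAC, 0.178 in NCAC and 0.154 in Con. Of the 10 genes with a CAC mean of at least 10 TPM and the widest CAC spread, Lcn2 and Saa3 belong to the acute phase. 8430408G22Rik had 289.6, 262, 18.4, 82.8 and 34.3 TPM in CAC replicates 1 to 5, against 18.9, 17.7, 12.5, 28.9 and 17 TPM in Con replicates 1 to 5 (log2 change 2.13, adjusted p = 0.00592; not called without replicate 1 of both groups, adjusted p = 0.0525); CAC replicates 1 and 2 were high and replicate 3 lay within the range of Con. Mup10, a major urinary protein of a family of near copies, had 72.4, 28.9, 5.37, 3.16 and 111 TPM in CAC replicates 1 to 5, against 8.0, 18.3, 21, 1.52 and 12.7 TPM in Con replicates 1 to 5 and was not called (adjusted p = 0.252). Gm8730, Gm11716 and Rpl14-ps1, predicted models or pseudogenes of this set, were near 0 TPM in some CAC libraries and above 10 TPM in others. Gm11716 and Rpl14-ps1 showed this in Con too, while Gm8730 had 125, 0, 205, 235 and 0.239 TPM in CAC replicates 1 to 5, against 78.6, 66.6, 63.9, 70.7 and 73.8 TPM in Con replicates 1 to 5. Rpl14-ps1 had 0.687, 199, 0, 0 and 0 TPM in CAC replicates 1 to 5, against 1.1, 2.99, 0, 0 and 165 TPM in Con replicates 1 to 5.

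No gene was called between NCAC and Con at 6 weeks (0.0% of 12364) by limma, and none with array weights, while 909 had an unadjusted p under 0.05; after rescaling 1 gene was called (0.00809%). CAC against NCAC gave 8500 calls (68.7%), 7926 of them higher in CAC and 574 lower. Rescaled, the split became 2437 higher and 2688 lower. Both comparisons share groups with CAC against Con. For Mt1, NCAC libraries averaged 42.1 ± 14.9 TPM, for Socs3 2.81 ± 1.71 TPM, for Trim63 156 ± 61.5 TPM and for Casq1 2742 ± 284 TPM (SD, n = 5 each). Their mitochondrial share of TPM was 36.7 ± 3.73%.

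The 6-week difference was set against those of 4 and 8 weeks, where 3134 (25.3%) and 8755 (70.8%) of the tested genes were called. For Mt1 the log2 changes at 4, 6 and 8 weeks were 2.77 ± 0.653, 5.11 ± 0.653 and 5.76 ± 0.604 (SE). Those of Socs3 were 4.02 ± 0.417, 4.16 ± 0.417 and 3.97 ± 0.386, of Hp 3.44 ± 0.724, 5.13 ± 0.724 and 4.84 ± 0.67, and of Trim63 1.13 ± 0.504, 2.02 ± 0.504 and 2.03 ± 0.467. Fkbp5 had 0.99 ± 0.668, 2.78 ± 0.668 and 3.13 ± 0.619, Casq1 -0.68 ± 0.361, -1.62 ± 0.361 and -1.52 ± 0.335, Ostn -1.09 ± 0.433, -2.90 ± 0.433 and -2.85 ± 0.401 and mt-Co1 -0.21 ± 0.0912, -0.45 ± 0.0912 and -0.52 ± 0.0844. A test of the change itself called 0 genes (0.0%) for 6 against 4 weeks, where 1263 had an unadjusted p under 0.05 and the lowest adjusted p was 0.188. With array weights, which let limma count uneven libraries less, it called 176. For 6 against 8 weeks it called 0 with and without array weights, 385 had an unadjusted p under 0.05, and the lowest adjusted p was 0.279. For the named genes the adjusted p of 6 against 4 weeks was 0.441 in Mt1, 0.932 in Socs3, 0.62 in Trim63 and 0.392 in Ostn. The larger count at 8 weeks thus came with no gene called for a change of the difference in the equal-weight fit.

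**Figure D5:**
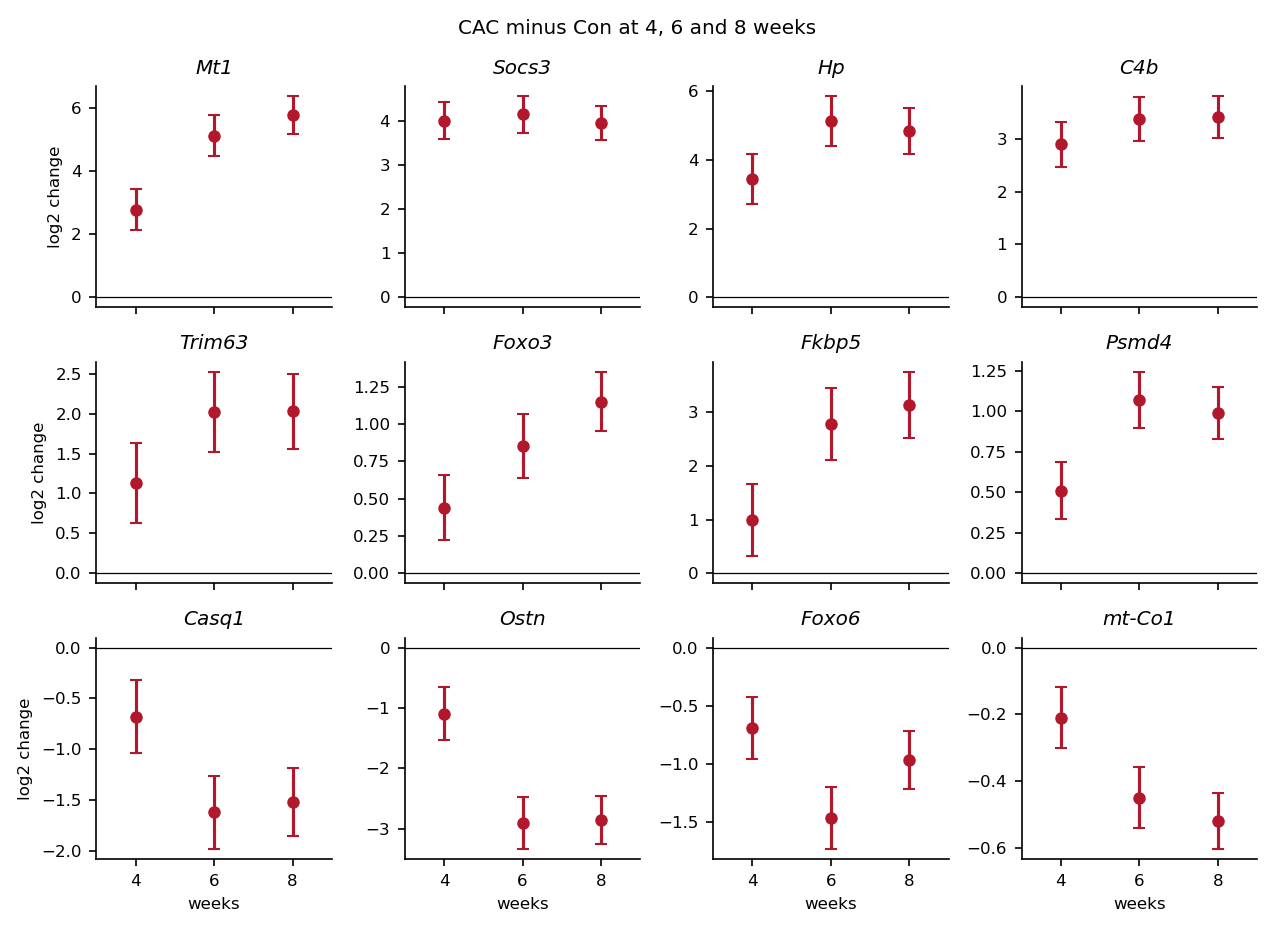
Log2 change (CAC minus Con, TPM as deposited) of 12 genes at 4, 6 and 8 weeks, with the SE; n = 5 a group, and 7 for CAC at 8 weeks. Mt1 stands at 2.77, 5.11 and 5.76, and Socs3 near 4 at all 3 times.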

How the data were processed

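Polyadenylated RNA of gastrocnemius, the main calf muscle, was sequenced from Trizol extracts with a stranded kit, per the labels' protocols. The authors deposited a single table of TPM values for 47643 gene symbols in 62 libraries, in which every library has the same total. The genome build was mm10 per the submitters' processing notes, and no source used here names the aligner, the counter or the annotation. TPM values keep no read counts, so no count test was run. Low values were whole multiples of 1 read's worth (tolerance 0.02) for 78 to 79.7% of symbols with a GENCODE length, from which depth was estimated.

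Groups came from the sample descriptions. The labels call the libraries biological replicates without tying each to an animal, so p-values measure the spread between libraries. The strain is given in conflicting ways. The treatment tag reads the same for all libraries and was not used. The 12364 genes with at least 1 TPM in at least 5 libraries were tested with limma (version 3.58.1, under R 4.3.3) after taking log2(TPM + 1): 1 fit with 12 group means over 62 libraries, a variance trend, two-sided moderated tests and Benjamini-Hochberg adjustment over all tested genes at a threshold of 0.05. Shares of TPM were compared with two-sided exact permutation tests. The procedure was tested on simulated data. Rescaling divided each library by the median ratio of its tested genes to their geometric means. It takes out the shift of the typical gene, whatever its source, and shows how far a call rests on that shift.

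The genes, lists and tests were chosen with earlier results of these data known. Genes named were the fixed sentinel genes, the 15 largest rises and falls among called genes without overlap, the 12 largest differences in TPM, the 10 most variable genes in CAC, up to 4 called and 2 uncalled members of each list, and the 5 largest changes either way in the contrasts with NCAC and with other weeks. Others are marked as chosen after their values were seen. A few genes that the rule takes are not reported here. Alternatives were another pseudocount (0.1 TPM), no filter, a filter of 5 TPM, rescaling, leaving out mitochondrial-genome genes, array weights, a fit of the compared groups alone, the replicate number as a block, and leaving out each library. Promoter sequences are from RefSeq (GRCm38.p6), which covers 250 bases before to 50 bases after a gene's start, and gene positions are from GENCODE vM21. Tables were handled with Python 3.11.15, pandas 2.3.3 and numpy 2.4.6.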

Additional observations from a re-analysis of the deposited data

Results flagged for a closer look

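Of 388 groups of 5 libraries examined on the log2(TPM + 1) scale, 21 held a library whose gap to its nearest neighbour exceeded 0.71 of the group's range. Chance alone flags about 1 in 20 groups.

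CAC replicate 1 stood highest in 6 of them. Its summed keratinocyte markers gave a gap of 0.914 of the range, and keratin Krt5 one of 1.0, since Krt5 was listed at 0 in the other 4 CAC libraries. The same library stood above the other CAC libraries in the zinc importer Slc39a14 (0.856), the IGF carrier Igfbp3 (0.79), the cytochrome oxidase subunit Cox8a (0.731) and the cytokine brake Socs3 (0.726).

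CAC replicate 4 was lowest in myostatin, Mstn (0.868), and in Igf1 (0.827), and highest in the endothelial cadherin Cdh5 (0.758). CAC replicate 3 was lowest in the gene model Gm11716 (0.838). In the ribosomal pseudogene Rpl14-ps1, whose reads can be shared with Rpl14, CAC replicate 2 was highest (0.901), and so was Con replicate 5 among Con libraries (0.729).

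Con replicate 4 was lowest in the fenestrated endothelium gene Plvap (0.88), in complement Cfd (0.762) and C3 (0.761), and in transferrin, Trf (0.718). Con replicate 2 was highest in Asb11 (0.724) and lowest in the chemokine Cxcl14 (0.786). Con replicate 1 was lowest in the mitochondrial chaperone Hspd1 (0.796). Con replicate 3 was lowest in the ubiquitin ligase gene Fbxo32 (0.76) and in the proteasome subunit Psmb7 (0.735).

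For 8500 genes the CAC and NCAC differences from Con differed, which the direct contrast of CAC with NCAC tested in limma at adjusted p under 0.05.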

How the results depend on the processing

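Of 7069 genes called between CAC and Con, 6400 were higher and 669 lower. The scale moved these counts most. Rescaling gave 3915 (1786 higher and 2129 lower), and leaving out the mitochondrial-genome genes gave 4600 (3497 higher and 1103 lower). Rescaling also gave 5125 calls for CAC against NCAC, against 8500 as deposited, and 1 for NCAC against Con. Ckm was 0.29 as deposited and -0.04 rescaled (adjusted p = 0.832). Without a filter 7751 genes were called, 1142 of them lower. The 0.1 TPM pseudocount gave 6979, the 5 TPM filter 5576, array weights 6454 and the compared groups alone 5832. Leaving out 1 library gave 5523 to 7186 calls (5043 to 6518 higher, 480 to 717 lower), and 7717 to 8526 for CAC against NCAC. Without CAC replicate 1 and Con replicate 1, a choice made after seeing the data, 5426 were called. For the change of the CAC-Con difference between 6 and 4 weeks, array weights gave 176 calls, and leaving out 1 library gave 0 to 4; for 6 against 8 weeks that gave 0 to 2. The mitochondrial share differed by -9.59 to -6.83 percentage points and that of the 20 most abundant genes by -9.52 to -6.35. The cause was not tested. Of 385 named genes, 253 kept their side of the threshold and direction in each alternative that tested them (the 5 TPM filter and the fit without mitochondrial-genome genes tested fewer). Rescaling ended 44 calls, added 35 and reversed the direction of 1. Leaving out CAC replicate 1 ended 26, and leaving out replicate 1 of both groups ended 36. With a replicate block 7179 genes were called (6480 higher and 699 lower). The deviations of same-numbered CAC and Con libraries correlated at 0.18, 0.0692, 0.0156, 0.168 and -0.0234, and 2 of 5 matched their own number best. Whether same-numbered libraries share anything beyond the number was not tested. TPM keep no counts, so changes in genes near 1 TPM are the least precise.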

Other observations

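Some of the genes with the largest called changes belong to no list described above. Tmem100, an endothelial membrane protein downstream of BMP signalling, averaged 63.4 ± 30.8 TPM in CAC libraries and 6.59 ± 3.16 TPM in Con libraries, and rose by 3.06 on the log2 scale (limma adjusted p = 1.47e-06). Wfdc17, a secreted protein of activated macrophages, averaged 45.4 ± 13.5 TPM in CAC libraries and 4.41 ± 2.55 TPM in Con libraries and rose by 3.18 (limma adjusted p = 2.52e-05). The CAC and Con libraries did not overlap in either gene.

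The falls included several genes of low level. The muscle dual-specificity phosphatase Dupd1 averaged 12.1 ± 3.46 TPM in CAC libraries and 44.1 ± 8.06 TPM in Con libraries and fell by 1.80 on the log2 scale. Map2k6, the kinase that switches on p38, averaged 4.25 ± 2.48 TPM in CAC libraries and 11.8 ± 2.83 TPM in Con libraries and fell by 1.41. Lrtm1 fell by 1.74, Mdga1 by 1.72 and Tceal7 by 1.28. These 5 calls also held when any single library was left out. Aqp4, the water channel of fast fibre membranes, averaged 7.23 ± 4.87 TPM in CAC libraries and 16.3 ± 2.42 TPM in Con libraries; its fall of 1.34 (limma adjusted p = 0.00512) was 0.92 in size and not called when CAC replicate 1 was left out (adjusted p = 0.0549). The pseudophosphatase gene Styx fell by 1.76 (limma adjusted p = 0.0186), and leaving out Con replicate 2 ended that call (adjusted p = 0.0523). In NCAC libraries Styx averaged 2.38 ± 3.05 TPM.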
